A study of Homo sapiens with 9 samples.

Results

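NGFR, the low-affinity neurotrophin receptor known on the cell surface as CD271, is described here with 7 partner genes of the neurotrophin and GDNF systems (NTRK2, NTRK3, BDNF, NTF3, SORT1, GFRA1 and RET). The 8 genes were taken by symbol from gene tables of 25593 loci, and all 8 were found. The tables come from 9 RNA sequencing libraries of neural crest-like cells, 3 for each of 3 expansion media. The cells derive from H9, an established line of human embryonic stem cells, so every value belongs to 1 genetic background. Every culture was first differentiated for 6 days with 10 µM SB431542, a small molecule that inhibits the Nodal, Activin and TGF-β type I receptors. In F_FSB, the cells were then expanded with FGF2 and SB431542 for 4 passages and kept for 3 further passages with FGF2 alone. In FSB, FGF2 (5 to 10 ng/ml) and SB431542 (3 to 5 µM) were both present throughout expansion. In F, expansion was with FGF2 alone. All cultures were kept on fibronectin under 5% oxygen after the sort, and RNA was taken at passage 6 to 7.

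NGFR was the marker by which these cells were sorted before expansion: the growth protocol describes sorting of cells with high CD271 that lacked CD73, whereas the cell type label gives both markers as positive. All 3 groups therefore descend from cells chosen for NGFR protein. NT5E, which encodes CD73, had 68.1, 46.2 and 74.8 FPKM in F_FSB, 24.3, 26.5 and 9.26 in FSB, and 63.2, 99.1 and 56.4 in F, so CD73 transcript was present in every group at harvest and lowest in FSB. The 9 libraries include none of freshly sorted cells. The treatment protocol describes F_FSB and FSB as divided from a shared expansion, without saying which cultures belong together.

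Neurotrophins are secreted growth factors that control survival and outgrowth of neurons and glia. Each binds a preferred receptor tyrosine kinase (BDNF and NTF4 bind NTRK2, NTF3 binds NTRK3), while NGFR, which has no kinase, binds all of them, and with the sorting receptor sortilin (SORT1) binds their uncleaved precursors. NGFR is a classic surface marker of migrating neural crest cells and of Schwann cell precursors. GDNF-type ligands signal through a separate pair, the anchored co-receptor GFRA1 and the kinase RET, best known in the crest cells that form the enteric nervous system.

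The values are FPKM, fragments scaled to transcript length and to the mapped fragments of the library, so levels of different genes can be set side by side per length. Fragment counts are not in the tables. Relative depth was estimated roughly, from 2 to 8 intronless genes per library that shared a low value. It was lowest in F_FSB replicate 2 (5 genes), at 60.0% of the maximum, and 82.7% or more in the other 8. Of 7 neural crest markers, TFAP2A, TFAP2B, SNAI2 and ETS1 had group means above 1 FPKM in every group. SOX10, a defining crest factor, averaged 0.00571 FPKM in F_FSB, 0.612 in FSB, where replicate 3 alone had 1.69, and 0.0178 in F, and FOXD3 was at 0 FPKM in the F_FSB and F libraries. Of 6 peripheral neuron markers, ELAVL4 was at 0 in every library, while STMN2 was above 1 FPKM in every library, at 1.71 to 11.6 in F_FSB, 2.44 to 10.5 in FSB and 1.14 to 4.22 in F.

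NGFR was highest in FSB, NTRK2 was lowest there, BDNF and GFRA1 were highest in F, and SORT1 passed the test in no comparison. Genes that reached 1 FPKM in 3 libraries or more were tested with limma on log2(FPKM + 1), and p-values were adjusted by Benjamini-Hochberg (BH) over the 13216 genes that met this filter. NGFR, NTRK2, BDNF, SORT1 and GFRA1 met it, and NTRK3, NTF3 and RET did not. In FSB against F, 1 of the 5 tested genes was higher (NGFR), against 28.5% of all tested genes, and 2 were lower (BDNF and GFRA1), against 13.4% of all. In F_FSB against FSB, 1 was higher (NTRK2), against 13.7% of all tested genes, and 1 was lower (NGFR), against 28.2% of all. In F_FSB against F none of the 5 passed, where 0.00757% of all tested genes did (1 gene, with 1195 at an unadjusted limma p under 0.05). Those shares move with scaling: FSB minus F had 3763 higher and 1773 lower genes, against 2424 and 2461 with scaling by median ratios, and F_FSB minus FSB had 1805 higher and 3722 lower, against 2505 and 2524. The calls of the 5 genes were the same under all 3 other scalings tried. The comparisons share libraries, so their values are given side by side.

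**Figure D1:**
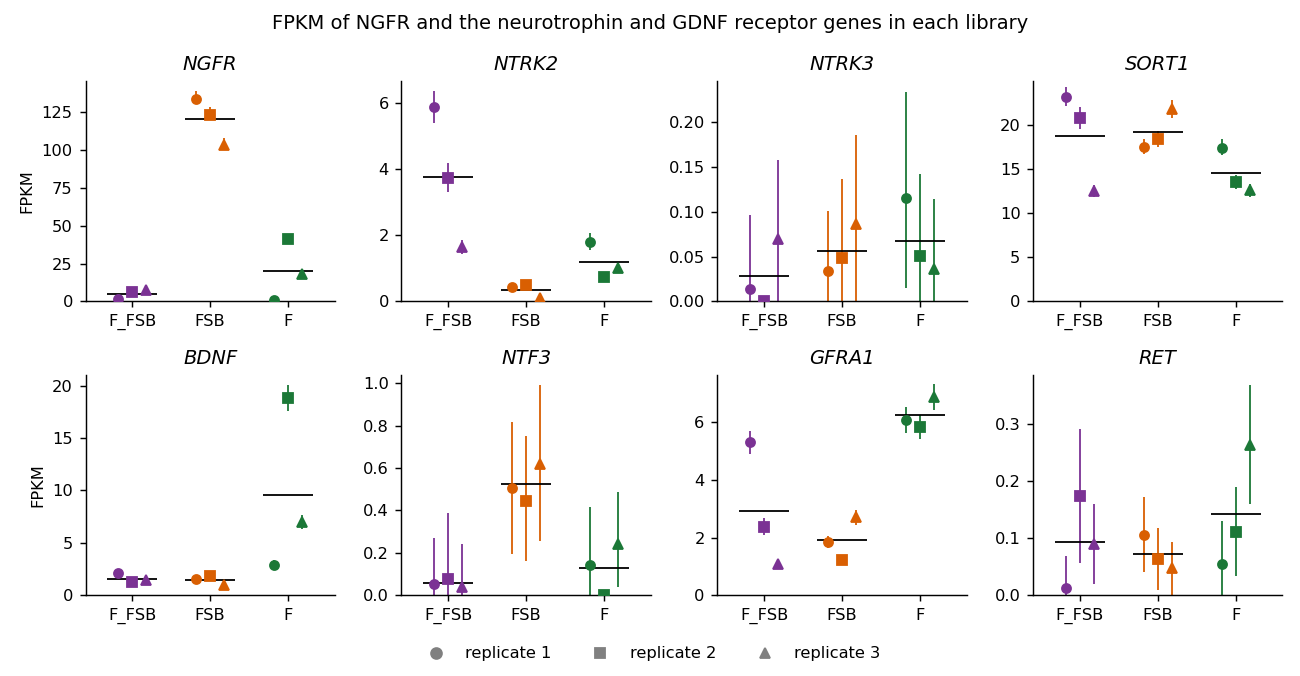
FPKM of each gene (vertical axis, starting at 0, a scale per panel) in the F_FSB, FSB and F libraries; symbols mark replicates, thin bars the interval Cufflinks deposited for that library, and black lines the group mean. NGFR lies between 103.6 and 134 FPKM in FSB and at or below 41.3 in the other 6 libraries, while NTRK2 is lowest in FSB, and BDNF and GFRA1 are highest in F.

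NGFR (chromosome 17, 47572655 to 47592382 on GRCh37) had 1.50, 5.92 and 7.26 FPKM in F_FSB replicates 1, 2 and 3. It had 134, 123 and 103.6 FPKM in FSB and 0.725, 41.3 and 18.0 in F. The FSB libraries were even and stood clear of the other 6, whereas the F libraries spanned the range from below all F_FSB libraries to above all of them. In rank, NGFR stood at or above 95.8% to 96.8% of tested genes in the FSB libraries. It stood at or above 10.9%, 39.1% and 46.4% in F_FSB replicates 1, 2 and 3, and 3.44%, 89.0% and 72.5% in F replicates 1, 2 and 3. Its mean in F_FSB was 0.0407 times that in FSB (limma log2 change -4.53 ± 1.05 SE, BH-adjusted p = 0.00983), and all 17 alternative settings kept this call. Its mean in FSB was 6.02 times that in F (limma log2 change 3.44 ± 1.05 SE, BH-adjusted p = 0.0306). That higher call was lost without FSB replicate 1, 2 or 3 or without the filter on low values (limma, BH-adjusted p = 0.0824, 0.0797, 0.0646 and 0.0874), in a range of 0.0137 to 0.0874 over 17 settings. Without F replicate 1 the call held at a log2 change of 2.09 (limma, BH-adjusted p = 0.0219). The SE is the same in both comparisons because a single fit pooled the spread of all 3 groups, which was unequal for NGFR. With only the 2 groups compared, the SE was 0.44 in F_FSB minus FSB and 1.11 in FSB minus F (limma, BH-adjusted p = 0.00139 and 0.0463). An uncharacterized locus that overlaps NGFR, LOC100288866, had at most 1.19 FPKM in any library.

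Within-group spread of NGFR on the log2(FPKM + 1) scale was 0.93 in F_FSB, 0.19 in FSB and 2.40 in F (SD, n = 3 each). Low NGFR in F replicate 1 came with low values of other genes of the system: BDNF and the sortilin relative SORCS2 were also lowest there, and higher in F replicates 2 and 3. Summed over 5 Schwann and satellite glia markers, the level was 7.83, 17.8 and 2.12 FPKM in F_FSB replicates 1, 2 and 3, between 11.2 and 11.5 in FSB, and 2.77, 14.9 and 8.65 in F replicates 1, 2 and 3. The sum thus followed the order of NGFR across the F libraries and not across the F_FSB libraries. In each group 2 of these 5 markers had a mean of 1 FPKM or more, CDH19 averaged below 0.1 in FSB and F, and S100B averaged below 0.1 in FSB. Summed over the 7 crest markers, the level was 68.9 to 120 FPKM in F_FSB, 188 to 211 in FSB and 83.4 to 122 in F. Summed over 5 mesenchymal stromal markers, all above 1 FPKM in every group, it was 413 to 543 in F_FSB, 214 to 283 in FSB and 429 to 538 in F. Single markers did not all follow these sums. The stromal markers PDGFRB and THY1 passed in no comparison. The crest marker TFAP2B averaged 14.0 FPKM in F_FSB, 8.56 in FSB and 6.51 in F, also without a call. The part of such markers in the NGFR values was not tested, and in bulk RNA fewer cells with the transcript and less of it per cell cannot be told apart.

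The tested genes whose log2(FPKM + 1) was most like that of NGFR over the 9 libraries were SARS2, TFAP4, NES, HTRA2 and KLHDC8B (Pearson r 0.984, 0.975, 0.970, 0.968 and 0.965). These r describe 9 points that share the separation of FSB from the rest, and no p is given. NES, which encodes the intermediate filament nestin of neural progenitors, had 21.8, 42.9 and 34.6 FPKM in F_FSB, 256, 234 and 191 in FSB, and 26.6, 75.3 and 78.7 in F, with the low F library again replicate 1. The transcription factor gene TFAP4 had 3.00 to 4.63 FPKM in F_FSB, 7.55 to 8.95 in FSB and 3.25 to 6.35 in F. The mitochondrial seryl-tRNA synthetase gene SARS2 varied far less in level, from 6.80 to 8.02 FPKM in F_FSB, 10.5 to 11.3 in FSB and 6.08 to 8.84 in F. The mitochondrial protease gene HTRA2 had 3.86 to 3.96 FPKM in F_FSB, 5.72 to 5.99 in FSB and 3.69 to 5.29 in F. KLHDC8B had 6.56 to 9.33 FPKM in F_FSB, 13.4 to 16.3 in FSB and 6.21 to 13.3 in F.

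Of the Trk kinase genes NTRK2 and NTRK3, NTRK2 alone reached 1 FPKM in any library. NTRK2 (chromosome 9, 87283466 to 87638505) encodes TrkB, the receptor for BDNF. It had 5.86, 3.74 and 1.64 FPKM in F_FSB replicates 1, 2 and 3, against 0.426, 0.505 and 0.0967 in FSB. In F it had 1.81, 0.733 and 1.02. The FSB libraries were below all others. The mean in F_FSB was 10.9 times that in FSB (limma log2 change 1.73 ± 0.34 SE, BH-adjusted p = 0.00513), a call that all 17 alternatives kept. The FSB libraries also lay below the F libraries, but the difference did not pass (log2 change -0.69, limma, BH-adjusted p = 0.140). With only those 6 libraries in the fit it passed (limma, BH-adjusted p = 0.0496, in a range of 0.0496 to 0.335 over 17 settings). NTRK2 met the filter on low values through 5 libraries, 3 of them F_FSB. The tables give 1 value per gene, so the full-length kinase form and the truncated form of TrkB were not distinguished.

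NTRK2 ran opposite to NGFR between groups and among the F_FSB and the F libraries, but not among the FSB libraries, where both were lowest in replicate 3. Among the F_FSB libraries NGFR was lowest in replicate 1 and highest in replicate 3, and NTRK2 was highest in replicate 1 and lowest in replicate 3. Among the F libraries NGFR was lowest in replicate 1 and highest in replicate 2, and NTRK2 was highest in replicate 1 and lowest in replicate 2. The ratio of NGFR to NTRK2, both in FPKM, was 0.256, 1.58 and 4.44 in F_FSB replicates 1, 2 and 3. It was 314, 245 and 1071 in FSB and 0.401, 56.3 and 17.6 in F. NTRK2 exceeded NGFR in F_FSB replicate 1 and F replicate 1 and in no other library.

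**Figure D2:**
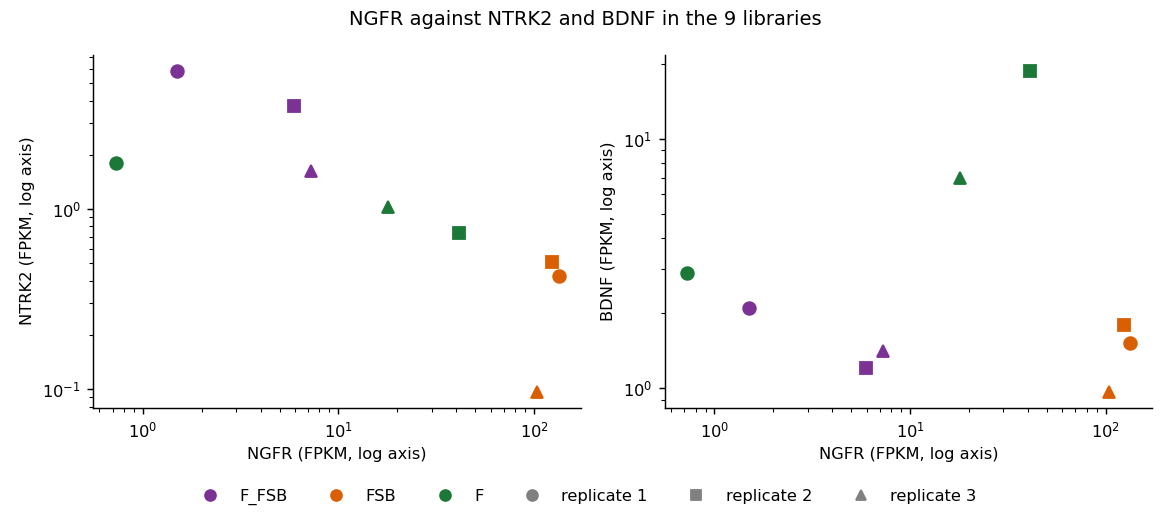
NTRK2 (left) and BDNF (right) against NGFR in the 9 libraries, in FPKM on log axes; colours mark the F_FSB, FSB and F groups and symbols the replicates. NTRK2 runs opposite to NGFR among the F_FSB and among the F libraries, and BDNF is high with NGFR in F replicates 2 and 3 and low in FSB despite high NGFR.

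NTRK3 (chromosome 15, 88419988 to 88799661), which encodes TrkC, the receptor for NTF3, was barely detected. Its values ran from 0 to 0.0697 FPKM in F_FSB, 0.0336 to 0.0865 in FSB and 0.0365 to 0.115 in F, and the interval deposited with each value reached 0 in all libraries except F replicate 1. LOC283738, which overlaps NTRK3, was listed at 0 in every library.

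SORT1 (chromosome 1, 109852187 to 109940563), the sortilin partner of NGFR in binding neurotrophin precursors, was at 12.4 FPKM or more in every library. It had 23.1, 20.7 and 12.4 FPKM in F_FSB, 17.4, 18.3 and 21.7 in FSB, and 17.4, 13.5 and 12.6 in F. The F_FSB libraries held both the lowest and the highest value, and no comparison passed (limma, BH-adjusted p = 0.828 for F_FSB minus FSB, 0.193 for FSB minus F and 0.655 for F_FSB minus F). Its log2 changes were -0.07, 0.39 and 0.32. The ratio of NGFR to SORT1 was 0.0649 to 0.584 in F_FSB, 4.77 to 7.67 in FSB, and 0.0417, 3.06 and 1.43 in F replicates 1, 2 and 3. Among other sortilin family genes, SORCS2, a receptor that also pairs with NGFR, had 0.453, 4.34 and 2.03 FPKM in F_FSB, 0.0677, 0.141 and 0.0958 in FSB, and 1.77, 9.50 and 8.05 in F. FSB cells had less SORCS2 than F cells (limma log2 change -2.54, BH-adjusted p = 0.00966), and F_FSB minus FSB did not pass (limma log2 change 1.38, BH-adjusted p = 0.0879). SORL1 passed in none of the 3 comparisons, and SORCS1 and SORCS3 stayed below the filter, with group means of at most 0.253 and 0.0316 FPKM.

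Of the ligands, BDNF (chromosome 11, 27676440 to 27743605) was highest in F and about as low in F_FSB as in FSB. It had 2.103, 1.21 and 1.41 FPKM in F_FSB, 1.52, 1.80 and 0.970 in FSB, and 2.90, 18.8 and 6.96 in F. All F libraries were above all others, and they were uneven. FSB cells had less BDNF than F cells (limma log2 change -1.82 ± 0.50 SE, BH-adjusted p = 0.0210). The call was lost without FSB replicate 1 or 3 or without the filter on low values (limma, BH-adjusted p = 0.0550, 0.0634 and 0.0637, in a range of 0.00372 to 0.0637 over 17 settings). F_FSB minus FSB was 0.08 on the log2 scale, short of the threshold (limma, BH-adjusted p = 0.907). The antisense locus BDNF-AS1 overlaps the gene and had 0.781 to 1.39 FPKM in F_FSB, 0.604 to 1.24 in FSB and 0.912 to 1.55 in F. The library kit preserves strand, per the labels' protocols, but its use in quantification was not stated. The part of BDNF-AS1 reads in the BDNF values was not tested.

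NTF3 (chromosome 12, 5541280 to 5604465), the ligand of TrkC, was low everywhere but highest in FSB. It had 0.0538, 0.0775 and 0.0403 FPKM in F_FSB, 0.506, 0.446 and 0.619 in FSB, and 0.144, 0 and 0.244 in F. The FSB libraries were above the other 6, and the deposited interval stayed above 0 in all 3 of them and in F replicate 3. Intervals of different groups overlapped, however. They were 0.162 to 0.751 in FSB replicate 2, 0 to 0.387 in F_FSB replicate 2 and 0.0406 to 0.487 in F replicate 3. NTF3 was too low for the filter. In the fit without it, F_FSB cells had less NTF3 than FSB cells (limma log2 change -0.53, BH-adjusted p = 0.00622) and FSB cells more than F cells (limma log2 change 0.44, BH-adjusted p = 0.0122). On the log2(FPKM + 1) scale such low values move little. NTF4, the other TrkB ligand, was below the filter, with group means of 0.260, 0.227 and 0.465 FPKM in F_FSB, FSB and F.

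GFRA1 (chromosome 10, 117816436 to 118033126), the GDNF co-receptor, was even across the F libraries. It had 5.31, 2.38 and 1.07 FPKM in F_FSB, 1.85, 1.22 and 2.70 in FSB, and 6.07, 5.83 and 6.87 in F. FSB cells had less of it than F cells (limma log2 change -1.34 ± 0.37 SE, BH-adjusted p = 0.0207). That call was lost without F replicate 3, without FSB replicate 1 or 2, or without the filter on low values (limma, BH-adjusted p = 0.0580, 0.0578, 0.0742 and 0.0616, in a range of 0.00338 to 0.0742 over 17 settings). The F_FSB libraries spread from near the F level in replicate 1 to below the FSB libraries in replicate 3, and F_FSB minus FSB did not pass (log2 change 0.31, limma, BH-adjusted p = 0.530). RET (chromosome 10, 43572517 to 43625799), the kinase that GFRA1 works with, had 0.0131 to 0.175 FPKM in F_FSB, 0.0474 to 0.106 in FSB and 0.0549 to 0.264 in F. It was below the filter, its groups overlapped, and no comparison passed in the fit without the filter (limma, BH-adjusted p = 1 for F_FSB minus FSB, 0.557 for FSB minus F and 0.953 for F_FSB minus F). The ligand gene GDNF had 0.361, 0.563 and 0.101 FPKM in F_FSB, 0.0127, 0.0532 and 0.0135 in FSB, and 0.157, 0.300 and 0.239 in F, lowest in FSB and below the filter. The ligand genes NRTN, ARTN and PSPN and the co-receptor genes GFRA2, GFRA3 and GFRA4 were below it as well, with group means of at most 0.627 FPKM. NCAM1, an adhesion molecule that can serve GFRA1 as an alternative partner to RET, had group means of 2.97, 3.44 and 2.89 FPKM in F_FSB, FSB and F and no call.

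BDNF and GFRA1, the genes of the set that were lower in FSB than in F, are shown by the 250 bases before their outermost start site in RefSeq, where a site for SMADs, the transcription factors downstream of the inhibited receptors, could be read. The RefSeq promoter table (GRCh38.p14) matched 7 of the 8 genes, all but NGFR. Both windows were placed on GRCh37 by exact match, on the minus strand, at chr11:27743578-27743827 for BDNF and chr10:118034218-118034467 for GFRA1, and are written from 5′ to 3′ with the SMAD box (CAGAC, or GTCTG on the other strand) in capitals.
BDNF: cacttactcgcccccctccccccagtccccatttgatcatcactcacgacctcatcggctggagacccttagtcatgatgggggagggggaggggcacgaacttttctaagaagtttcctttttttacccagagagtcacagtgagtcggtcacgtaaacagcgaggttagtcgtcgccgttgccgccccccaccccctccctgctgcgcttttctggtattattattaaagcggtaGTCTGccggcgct
GFRA1: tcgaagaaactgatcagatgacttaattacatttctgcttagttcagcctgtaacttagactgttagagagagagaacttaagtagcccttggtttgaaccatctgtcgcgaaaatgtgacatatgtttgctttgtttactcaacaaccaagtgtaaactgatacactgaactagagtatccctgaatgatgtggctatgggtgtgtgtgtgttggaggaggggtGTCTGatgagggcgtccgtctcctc
Each window holds 1 match, and SMAD binding there, or a part of it in these changes, was not tested. Of the windows of these genes in the table, 1 of 5 for BDNF and 2 of 4 for GFRA1 held a match, and none of 4 did for NTRK2, which was also lowest in FSB and whose windows are not shown. Among all 20 windows of the 7 genes 4 held a match, against 38.0% of 35116 windows of all genes in the table. The remaining window with a match was of NTF3, which was highest in FSB, and it held 2 matches. A match was thus not limited to the genes that were lower in FSB. The BDNF start lies 28 bases inside the deposited locus, while the GFRA1 start lies outside it. The tables list 9 start sites for BDNF and 3 for GFRA1, and give no value for each.

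F_FSB and F were harvested in the same medium and differ in the earlier inhibitor period. The log2 changes of F_FSB minus F were -1.09 for NGFR, 1.04 for NTRK2, -1.74 for BDNF, 0.32 for SORT1 and -1.04 for GFRA1. The BDNF and GFRA1 libraries of F_FSB were all below those of F, and those of NGFR, NTRK2 and SORT1 overlapped. How many of all tested genes separate in this way was not counted, so the separation is not read as particular to these genes. None passed, although NTRK2, BDNF and GFRA1 had unadjusted p = 0.0157, 0.00834 and 0.0223 (limma, BH-adjusted p = 0.742 for NGFR, 0.508 for NTRK2, 0.501 for BDNF, 0.655 for SORT1 and 0.527 for GFRA1). Among the 17 alternatives the BDNF difference came nearest without F replicate 1, at a log2 change of -2.30 (limma, BH-adjusted p = 0.0581, in a range of 0.0581 to 0.963).

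**Figure D3:**
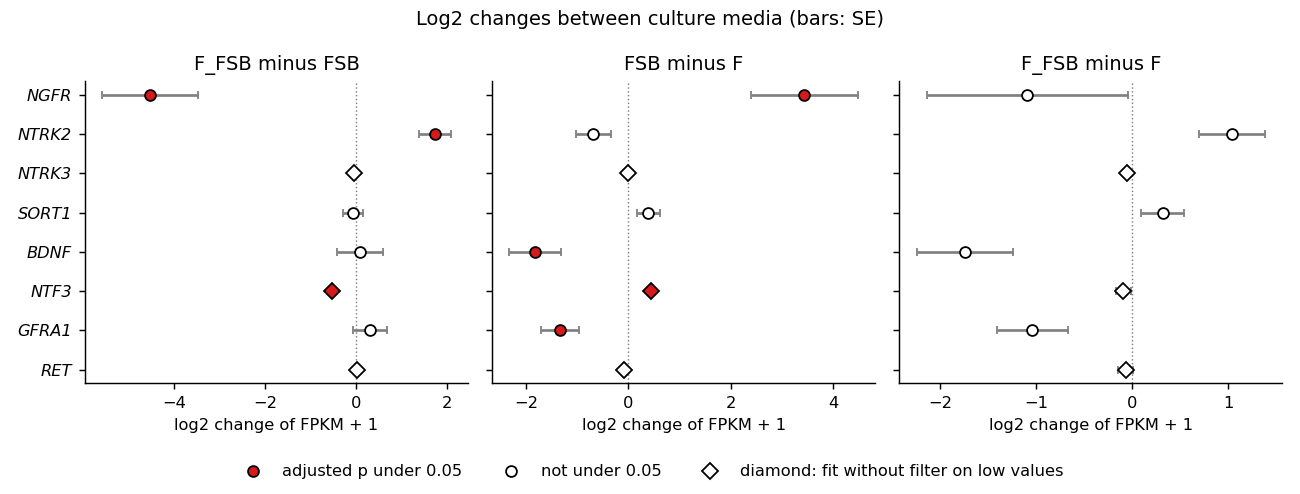
Log2 change of FPKM + 1 (horizontal axis, a scale per panel) with its SE for each gene in the 3 comparisons; circles are genes that met the filter on low values, diamonds genes fitted without it, and red marks a BH-adjusted p under 0.05 (limma). NGFR has the largest change in both panels that involve FSB (-4.53 and 3.44), and no gene is red in F_FSB minus F.

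Of 47 other genes of these pathways, 46 were in the tables and 33 met the filter. In F_FSB against FSB 5 of the 33 were higher and 6 lower, where 13.7% and 28.2% of all tested genes were. In FSB against F 5 were higher and 6 lower, where 28.5% and 13.4% of all were, and in F_FSB against F none passed. The counts per list below are to be read against these shares, and none is given as particular to its list. Their median log2 change was -0.03 in F_FSB against FSB and 0.08 in FSB against F, beside -0.13 and 0.14 over all tested genes. Relative to those medians, NGFR changed by -4.40 in F_FSB against FSB and 3.30 in FSB against F, and NTRK2 by 1.86 in F_FSB against FSB.

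Of 11 tested adaptors that couple Trk kinases and RET to downstream signalling, 4 passed in F_FSB against FSB and 4 in FSB against F, in both directions. SHC1 and DOK4 were higher and SHC3 and PLCG1 lower in F_FSB than in FSB, and SHC3 and PLCG1 were higher and DOK5 and FRS2 lower in FSB than in F. The neuronal Shc gene SHC3 had 0.896, 0.788 and 0.433 FPKM in F_FSB, 4.79, 4.07 and 3.40 in FSB, and 1.10, 1.41 and 1.23 in F. It fell by 1.58 in F_FSB relative to FSB (limma, BH-adjusted p = 0.000290). DOK5, a substrate of RET and Trk kinases, had 2.93, 3.94 and 4.75 FPKM in F_FSB, 0.783, 1.41 and 0.516 in FSB, and 5.93, 11.5 and 32.4 in F. It fell by 2.93 in FSB relative to F (limma, BH-adjusted p = 0.00292). These SHC3 and DOK5 calls held in all 17 alternatives. Under the 3 other scalings the remaining adaptors kept direction, but PLCG1 lost its call in FSB minus F in all 3 and in F_FSB minus FSB in 2, and FRS2, SHC1 and DOK4 lost theirs with scaling to the same sum (limma, BH-adjusted p = 0.109, 0.338 and 0.288, each the highest over 17 alternatives). Of the 17 alternatives, FRS2 passed in 11, PLCG1 in 9 in either comparison, SHC1 in 6 and DOK4 in 5. The FPKM of F_FSB replicate 2 summed to 506146, against 361026 to 395596 in the other libraries. Scaling to the same sum therefore lowers that library most.

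Of 9 tested partners and adaptors of NGFR, MAGED1 and KIDINS220 were higher and RTN4R and TRAF6 lower in F_FSB than in FSB. RTN4R and TRAF6 were higher and MAGED1, KIDINS220 and BEX1 lower in FSB than in F. RTN4R, the Nogo receptor that uses NGFR as its signalling partner in neurons, had 2.38, 1.48 and 3.06 FPKM in F_FSB, 5.52, 4.88 and 7.67 in FSB, and 3.32, 2.25 and 2.34 in F (limma, BH-adjusted p = 0.00548 for F_FSB minus FSB and 0.0110 for FSB minus F). KIDINS220, a scaffold of Trk receptors and NGFR, had 26.1, 27.3 and 25.1 FPKM in F_FSB, 20.6, 18.8 and 20.6 in FSB, and 28.3, 25.0 and 25.2 in F. All of these partners kept direction under the 3 other scalings, but scaling to the same sum ended the MAGED1 calls in both comparisons and the KIDINS220 call in F_FSB minus FSB (limma, BH-adjusted p = 0.1803 and 0.144 for MAGED1 and KIDINS220 in F_FSB minus FSB and 0.117 for MAGED1 in FSB minus F, each the highest over 17 alternatives). TRAF6 lost its call in F_FSB minus FSB without FSB replicate 2 (limma, BH-adjusted p = 0.0507, in a range of 0.0113 to 0.0507). The BEX1 call was lost without any 1 FSB library, without F replicate 3 or without the filter on low values (limma, BH-adjusted p up to 0.0942). NGFRAP1, which encodes an NGFR-associated protein, was abundant and even, with group means of 247, 258 and 243 FPKM in F_FSB, FSB and F and no call.

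Of 6 genes for the proteases that cleave NGFR, ADAM17, ADAM10 and γ-secretase subunits, none passed in FSB against F, and F_FSB cells had less PSENEN than FSB cells (limma log2 change -0.24, BH-adjusted p = 0.0469), a call that only 2 of 17 alternatives kept, with adjusted p up to 0.465. Of 3 tested convertases that mature neurotrophin precursors, F_FSB cells had more FURIN and less PCSK7 than FSB cells (limma log2 changes 0.48 and -0.46, BH-adjusted p = 0.0171 and 0.00356). FSB cells had more PCSK7 than F cells (limma log2 change 0.57, BH-adjusted p = 0.00151). The PCSK7 calls held in all 17 alternatives, and FURIN lost its call with scaling to the same sum and without F_FSB replicate 1 or 3 (limma, BH-adjusted p up to 0.163).

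**Figure D4:**
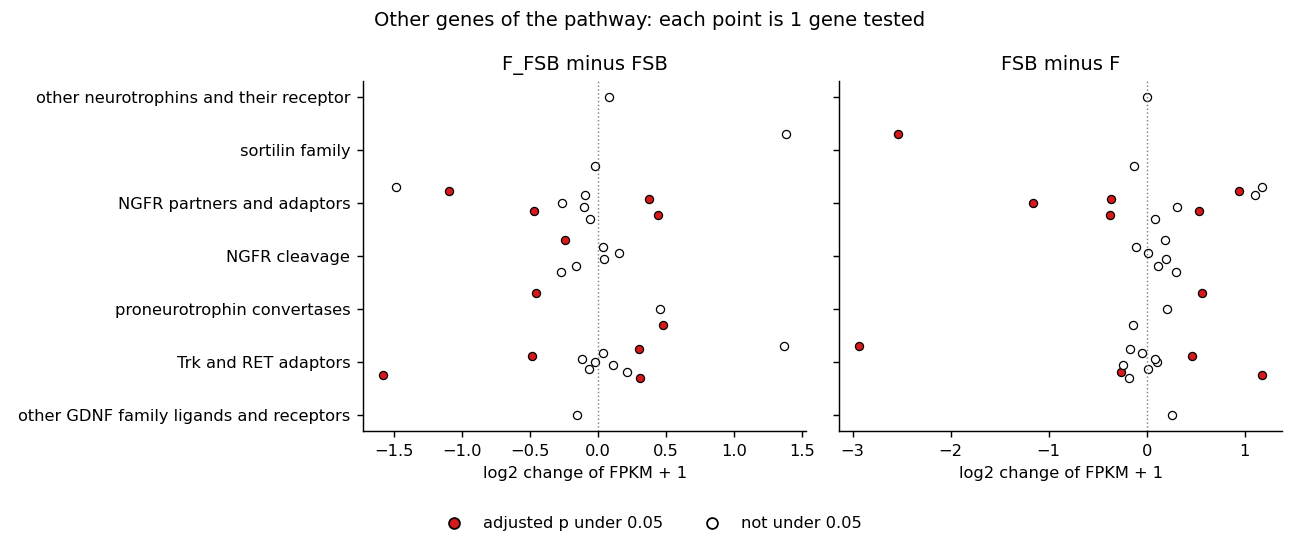
Log2 change of FPKM + 1 (horizontal axis) of each of the 33 tested pathway genes other than the 8, by list, in F_FSB minus FSB and FSB minus F; red marks a BH-adjusted p under 0.05 (limma), and the vertical spread within a list only separates points. Most points lie within 0.5 of 0, with DOK5 (-2.93) and SORCS2 (-2.54) lowest in FSB minus F.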

How the data were processed

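RNA was sequenced from 9 cultures, 3 per medium. The FPKM values were deposited by the authors in 1 gene table per library, as the file headers show, with Cufflinks' interval beside each value. GRCh37, TopHat2 2.0.12 and Cufflinks 2.1.1 are listed in the submitters' processing notes. Annotation, options and use of strand were not given in the sources used. Depth limits low genes and is known only in relative terms, from the commonest low product (within 3%) of FPKM and length of intronless olfactory receptor genes.

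From these values, 95 loci without an OK status in every library were left out, and 13216 genes at or above 1 FPKM in 3 libraries or more were tested as log2(FPKM + 1), which understates changes of low genes. One fit of group means over the 9 libraries used limma 3.58.1 (R 4.3.3), trend on mean level, two-sided, with BH adjustment and a threshold of 0.05. The test was checked on simulated data in which each gene had the same spread in all groups and few genes changed, unlike these data. The series calls the 3 replicates of a group biological without naming separate differentiations, so p-values measure the spread between these cultures. No 2 libraries shared more than 0.00525% of their nonzero values. Figures used Python 3.11.15 and matplotlib 3.10.9.

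The 8 genes and all lists were chosen with earlier results of these data known. Named genes were the 8, up to 3 passing genes per list with the smallest adjusted p, the ligands and receptors of both families (some are not reported here), loci overlapping the 8 genes, and the 5 tested genes with the highest r with NGFR at 5 FPKM or more in 1 group. NRADD was not analysed here. Alternatives were the pseudocount, the filter, 3 scalings, no trend, only the groups compared, a replicate block and leaving out each library. CDH19, S100B, PDGFRB, THY1, TFAP2B and NGFRAP1 were singled out after their values were seen.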

Additional observations from a re-analysis of the deposited data

How the results depend on the processing

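Each result was recomputed under 17 alternatives. NGFR and NTRK2 in F_FSB minus FSB kept direction and call in all of them. With no filter on low values, none of the 5 tested genes passed in FSB minus F (0 against 3), with NGFR unchanged at 3.44, and 2 genes of the whole table passed in F_FSB minus F, against 1. Leaving out each library in turn gave 0 to 3 of the 5 genes in FSB minus F, 0 without FSB replicate 1 and 1 without FSB replicate 2 or 3. NGFR there ranged from 2.09 to 4.40. In F_FSB minus F, 0 to 77 genes of the whole table passed, 77 without F replicate 1 and 4 without F replicate 2. Differences that passed nowhere changed sign in F_FSB minus FSB. SORT1, at -0.067, became 0.0669 with quantile normalization and 0.0809 with scaling by median ratios. Without 1 library it ranged from -0.23 to 0.19, BDNF from -0.0597 to 0.193 and GFRA1 from -0.11 to 0.69. No other scaling changed a direction or a call of the 5 genes.

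Whether replicate numbers pair the libraries is not known. Correlations of deviations from group means ran from -0.136 to 0.292 between same-numbered libraries and from -0.230 to 0.127 between others. The highest was between F replicate 1 and F_FSB replicate 1. With the replicate block, 0 genes passed in F_FSB minus F, 4842 in FSB minus F and 4983 in F_FSB minus FSB, and the 5 genes had 0, 3 and 2 calls in these comparisons, as without it. NTRK3, NTF3 and RET were near the depth limit, and their values are the least precise.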
